A study of Sus scrofa with 18 samples.

Results

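The endometrium of Yorkshire gilts was compared with that of Meishan gilts on gestational day 15 (GD15), across every probe set of the Affymetrix porcine GeneChip that gave a clear signal on that day. A probe set is a group of short probes that read 1 stretch of a transcript. Of the 24123 probe sets on the array, 23999 are not controls, and 8776 of these had an intensity above 100 on at least 3 of the 6 GD15 arrays and were tested. The third-highest array of the last probe sets kept stood at 100.2, and that of the first ones left out at 99.96, so the limit cuts through a continuum. Of the tested probe sets, 4844 carry 1 gene symbol, and they stand for 4119 genes. The study holds 18 arrays, 3 for each breed on GD15, GD26 and GD50, and 6 of them are compared here.

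The Meishan is a Chinese breed known for large litters, and the Yorkshire is a less prolific European breed. Around this time of pregnancy the elongated pig conceptus attaches to the luminal epithelium without invading it, and the endometrium feeds it with secretions of the uterine glands called histotroph. Steroids, prostaglandins, retinoids and the interferons released by the trophoblast act on the endometrium in this period.

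The groups differ by breed alone in the labels. The gilts were of similar age and weight, were mated to boars of their own breed and received no treatment named in the labels, and pregnancy on GD15 was checked by a conceptus in the uterine flushing. Each array measured RNA pooled from corresponding attachment sites of the same pair of gilts, so the p-values reflect how much sites varied and say nothing of how much animals did. Breed and the particular gilts used cannot be told apart. The values are log2 intensities, in which 1 unit is a doubling, and they were compared with limma. A gene is called higher in a breed where the Benjamini-Hochberg adjusted p was at most 0.05. It is a differentially expressed gene (DEG) where the fitted difference also reached a fold change of 2. Where all 3 arrays of the dimmer breed lay under 100, that breed was set to 100 for the fold given here. Such a fold is a lower bound, and it can be under 2 for a DEG.

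The arrays of a breed correlated at 0.938 to 0.979 in Meishan and at 0.983 to 0.990 in Yorkshire, against 0.908 to 0.932 between breeds. Added bacterial RNAs that report on hybridization averaged 10.53 ± 0.69 on the log2 scale in Meishan and 10.71 ± 0.36 in Yorkshire (SD, n = 3, two-sided exact permutation p = 0.7), where the smallest possible p of this design is 0.1. The 3' minus 5' log2 signal of the actin and GAPDH controls reports on RNA integrity. For actin it averaged 4.01 ± 0.35 in Meishan and 4.48 ± 0.21 in Yorkshire (exact permutation p = 0.2, n = 3). For GAPDH it averaged 1.08 ± 0.32 and 1.32 ± 0.21 (exact permutation p = 0.4, n = 3). Meishan replicate 3 read 4.41 and 1.42, above the other Meishan arrays and within the Yorkshire ranges. The part of RNA integrity in the breed differences was not tested. The epithelial markers EPCAM and CDH1 stood at 13.26 to 13.62 and at 12.54 to 12.86 on all arrays, and VIM and DCN, which mark stroma, at 13.23 to 13.94. Desmin (DES) and calponin (CNN1), which mark the muscle layer, reached intensities of at most 26.9 and 97.9, and the trophoblast genes PAG6, PPAG3, CYP17A1 and IFNG at most 39.7. The 4 muscle markers that were measured summed to 8319 to 8521 in Meishan and 5687 to 6895 in Yorkshire, without overlap. Of these, 1 passed the test, ACTA2, higher in Meishan, and its call was lost without any 1 array other than Meishan replicate 3. Without that replicate, ACTG2, another of these markers, was called higher in Yorkshire (0.86 ± 0.19). Over the 10 measured genes of a wider smooth muscle list, the sums overlapped, at 20960 to 23240 in Meishan and 20220 to 22290 in Yorkshire. The 1 trophoblast marker measured stood at 311.1 to 403.8 in Meishan and 266 to 327.2 in Yorkshire and did not pass. The probe sets of COL1A2, COL3A1, KDR and TIE1 also stayed under 100, although stroma and vessels are part of the tissue. Meishan replicate 3 stood apart in leukocyte and interferon genes, and the counts of calls and list medians that it moved most are given with and without it.

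Between the breeds, 525 probe sets were DEGs, which is 5.98% of those tested. Of these, 268 (3.05%) were higher in Yorkshire and 257 (2.93%) were higher in Meishan. At the adjusted p alone, 612 (6.97%) were higher in Yorkshire and 533 (6.07%) in Meishan. The median difference over all tested probe sets was -0.004, which the normalization across arrays may set, and 90% of the differences lay between -0.75 and 0.83. The breeds did not overlap in all 525 DEGs, nor in 2959 (33.7%) of all tested probe sets. At least 4-fold differences were found for 40 DEGs higher in Yorkshire and 33 higher in Meishan. The fold is a lower bound for 81 and 78 DEGs, respectively. Meishan pools scattered more than Yorkshire pools, with median SDs of 0.23 and 0.13. Leaving out Meishan replicate 3 raised the DEGs to 333 higher in Yorkshire and 289 higher in Meishan, and leaving out Yorkshire replicate 2 left 218 and 209.

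**Figure D1:**
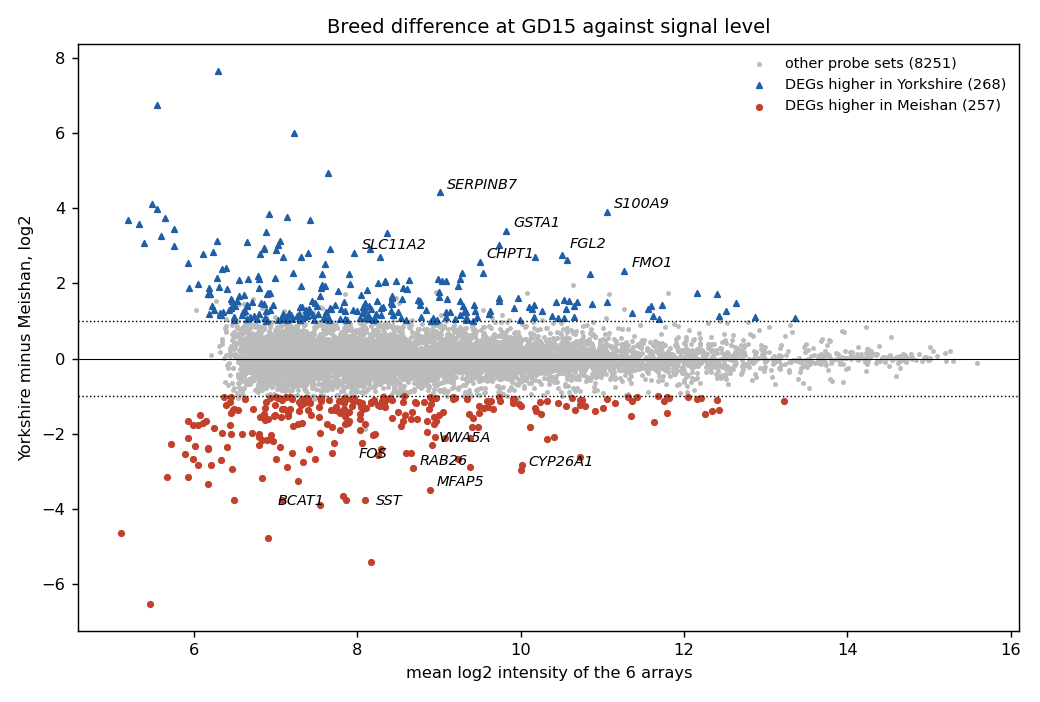
Yorkshire minus Meishan difference (log2) of each tested probe set against its mean log2 intensity over the 6 GD15 arrays, with DEGs of each breed coloured, dotted lines at a fold change of 2, and names at the leading genes. The 268 DEGs higher in Yorkshire and the 257 higher in Meishan spread over most of the signal range, and the largest fitted differences lie at low mean intensity.

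Some of the largest differences belonged to probe sets without a gene name here. The one farthest to the Yorkshire side read 2.46, 2.72 and 2.22 in Meishan and 10.10, 10.33 and 9.91 in Yorkshire (at least 11.1-fold), and another read 10.82, 10.94 and 10.85 in Meishan and 5.11, 5.37 and 5.94 in Yorkshire (at least 18.7-fold). Both thus lay under 100 on every array of 1 breed and far above it in the other. Of the 525 DEGs, 260 carry 1 symbol, for 240 genes, of which 120 DEGs were higher in Yorkshire and 140 in Meishan.

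The named DEG with the largest excess in Yorkshire was SERPINB7, an intracellular inhibitor of serine proteases. Its log2 intensity was 6.12, 6.90 and 7.38 in Meishan and 11.04, 11.16 and 11.48 in Yorkshire, a difference of 4.42 ± 0.31 (SE, 21.4-fold, limma adjusted p = 1.68e-04). All Yorkshire pools were thus far above all Meishan pools. S100A9, a calcium-binding protein abundant in neutrophils and monocytes, read 9.72, 9.38 and 8.22 in Meishan and 13.50, 13.03 and 12.49 in Yorkshire (3.90 ± 0.41, 14.9-fold, adjusted p = 0.00114). The probe set of S100A8, its binding partner, did not exceed an intensity of 4.56 on any array. The macrophage markers AIF1 and C1QA, the 2 of 4 on the array that were measured, summed to 277.5 to 1049 in Meishan and 932.7 to 1534 in Yorkshire, and neither passed the test. CD14 did not reach 100 on any array. The part of these cells in the S100A9 difference was not tested, and fewer cells of a type and less RNA per cell cannot be told apart in such tissue RNA.

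Some of the leading genes in Yorkshire encode enzymes of detoxification and repair, GSTA1, FMO1, CBR2 and MSRB2. In a list of such enzyme families made after the values were seen, 7 of 42 measured genes were higher in Yorkshire and 6 in Meishan. These shares were 16.7% and 14.3%, against 6.41% and 5.75% of all genes, so neither breed was favoured, and enrichment was not tested. GSTA1, which conjugates glutathione, read 7.82, 8.31 and 8.25 in Meishan and 11.46, 11.54 and 11.56 in Yorkshire (10.5-fold, adjusted p = 4.54e-05). A second probe set of GSTA1 was higher by 2.92 ± 0.24, whereas the brightest, which can also read related family members, was not called (12.43 to 12.69 in Meishan, 12.09 to 12.32 in Yorkshire, adjusted p = 0.0979) and was called higher in Meishan (-0.49 ± 0.12) without Meishan replicate 3. FMO1, a flavin-containing monooxygenase, read 9.90 to 10.24 in Meishan and 12.33 to 12.54 in Yorkshire (5.04-fold). CBR2, a carbonyl reductase, read 7.57, 8.81 and 7.66 against 10.15, 10.17 and 9.90 (4.17-fold, adjusted p = 0.00602). MSRB2, which repairs oxidized methionine, lay under 100 on all Meishan arrays and at 8.65 to 9.01 in Yorkshire (at least 4.49-fold). The Meishan pools of CBR2 scattered more than its Yorkshire pools.

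SLC11A2, an importer of iron, read 6.44, 6.71 and 6.53 in Meishan and 9.43, 9.24 and 9.44 in Yorkshire (6.99-fold, adjusted p = 4.54e-05). FGL2, a fibrinogen-like protein with roles in coagulation and immune regulation, read 9.10, 9.21 and 9.08 in Meishan and 11.76, 11.80 and 12.08 in Yorkshire (6.72-fold). Its other probe sets gave differences of 2.70 and 2.70, so all 3 probe sets put it higher in Yorkshire. CHPT1, which makes phosphatidylcholine, was 5.91-fold higher, and ST6GAL1, which adds sialic acid to glycoproteins, was 4.23-fold higher (adjusted p = 2.59e-04 and 8.86e-04). KMO, an enzyme of tryptophan breakdown, read 7.85, 8.72 and 8.65 in Meishan and 9.70 to 11.34 in Yorkshire (4.83-fold, adjusted p = 0.0139). Its Yorkshire pools were spread widely, and the KMO call was lost without Yorkshire replicate 1 or 2, where the differences were 1.94 and 2.11. NPY, the appetite-related neuropeptide, was at the array's background of 2.181 on all Meishan arrays and at 9.84, 8.35 and 8.53 in Yorkshire (at least 4.80-fold, adjusted p = 5.85e-05). NPY was thus seen in every Yorkshire pool and in no Meishan pool at this signal.

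The leading named gene in Meishan was MFAP5, a component of elastic microfibrils. MFAP5 read 11.07, 10.37 and 10.45 in Meishan and 7.19, 6.98 and 7.25 in Yorkshire, a difference of -3.49 ± 0.21 (11.2-fold, adjusted p = 9.16e-05). DPT, or dermatopontin, a matrix protein that binds collagen fibrils, read 9.11, 9.15 and 8.22 in Meishan and lay under 100 on every Yorkshire array (at least 4.54-fold, adjusted p = 0.00369). Summed over VIM, DCN and LUM, the stroma markers measured, the intensity was 32380 to 36850 in Meishan and 27170 to 32430 in Yorkshire, and no marker passed the test.

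SST, which encodes the inhibitory hormone somatostatin, read 10.11, 10.10 and 9.71 in Meishan and 6.64, 5.67 and 6.33 in Yorkshire (at least 10.04-fold, adjusted p = 1.62e-04). The neuropeptide NPY and the peptide hormone SST thus lay on opposite sides of the comparison, and the Yorkshire level of SST was under the limit of 100 but above the lowest value of the arrays. BCAT1, which breaks down branched-chain amino acids, read 9.76, 9.44 and 10.03 in Meishan and 5.80, 6.12 and 6.02 in Yorkshire (at least 8.55-fold), and its second probe set gave -3.66 ± 0.18. SLC1A1, a carrier of glutamate and aspartate, read 10.08 to 10.24 in Meishan and 7.93 to 8.18 in Yorkshire (4.35-fold, adjusted p = 1.12e-04).

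CYP26A1, the enzyme that degrades retinoic acid, read 11.94, 11.08 and 11.43 in Meishan and 8.26, 8.25 and 9.07 in Yorkshire (7.77-fold, adjusted p = 8.61e-04). FOS, a transcription factor induced within minutes by growth signals, read 9.48, 9.76 and 10.29 against 7.51, 7.41 and 7.11 (5.66-fold). RAB26, a small GTPase of secretory vesicles, was 7.57-fold higher in Meishan, with pools at 9.76 to 10.41 against 6.95 to 7.48. Leading genes were chosen without overlap between the breeds, so the gaps follow from that rule. CCL28, a chemokine of mucosal epithelia, read 10.33, 10.40 and 10.59 in Meishan and 8.38, 8.81 and 7.76 in Yorkshire (4.36-fold, adjusted p = 0.00212). VWA5A was 4.94-fold higher, and ARHGEF2, a microtubule-bound activator of the small GTPase RhoA, was 4.75-fold higher.

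**Figure D2:**
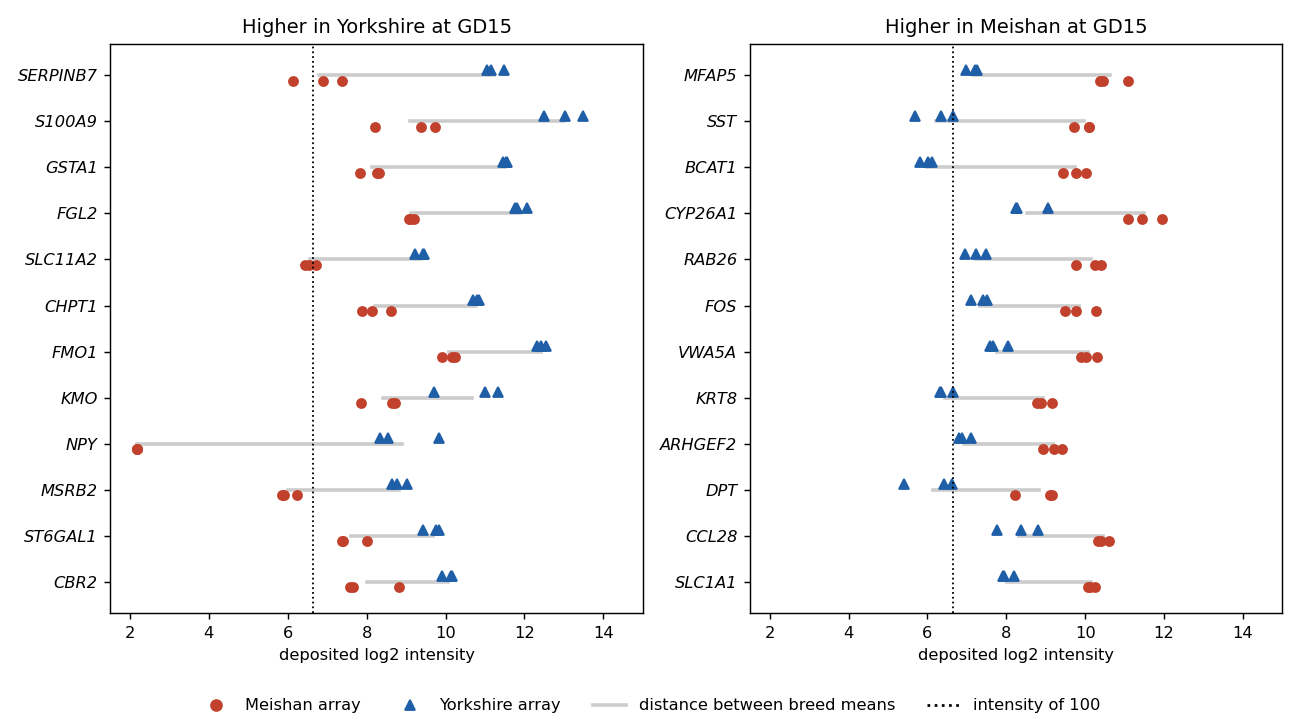
Deposited log2 intensity on each GD15 array for the 12 DEGs with the largest difference in each direction, ranked with intensities under 100 set to 100, with Meishan arrays as circles, Yorkshire arrays as triangles, and a dotted line at an intensity of 100. Genes were chosen without overlap between the breeds, and NPY sits at 2.181 on all Meishan arrays.

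Probe sets of 1 gene did not always tell the same story. KRT8, a keratin of simple epithelia, differed only in its dimmer probe set (8.77 to 9.17 in Meishan, under 100 in Yorkshire), and the brighter read 12.79 to 12.96 and 12.61 to 12.84 (adjusted p = 0.454). Of 587 genes with several tested probe sets, 473 had none past the adjusted p, 29 had all called in 1 direction, 83 had some called, and 2 had calls in both directions. These 2 genes were UGT2B31, with differences of 1.49 ± 0.30 and -2.68 ± 0.26, and RAN, with 1.83 ± 0.20 and -0.83 ± 0.20. The smaller difference of each pair lost its call without Meishan replicate 2 or any 1 of the Yorkshire arrays, so neither gene then had calls in both directions. RAN encodes a GTPase of nuclear transport, and its brightest probe set, at 14.14 to 14.32, was not called. Among the 51 genes with a DEG and another tested probe set, 57 of the 69 other probe sets had the same sign, and 26 were called in that direction.

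Lists of genes known in uterine and placental biology were then counted, each gene by its brightest probe set. Over all 4119 genes, 6.41% were higher in Yorkshire and 5.75% were higher in Meishan at the adjusted p, 5.12% were DEGs, and the median difference was -0.01. The shares of each list are plotted against this background, and several lists held more calls than it in both directions. No list was tested as a set, and medians close to 0 can change sign with 1 array. A gene under 100 on all arrays of 1 breed entered its list through the other breed alone, so its call follows in part from the filter.

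**Figure D3:**
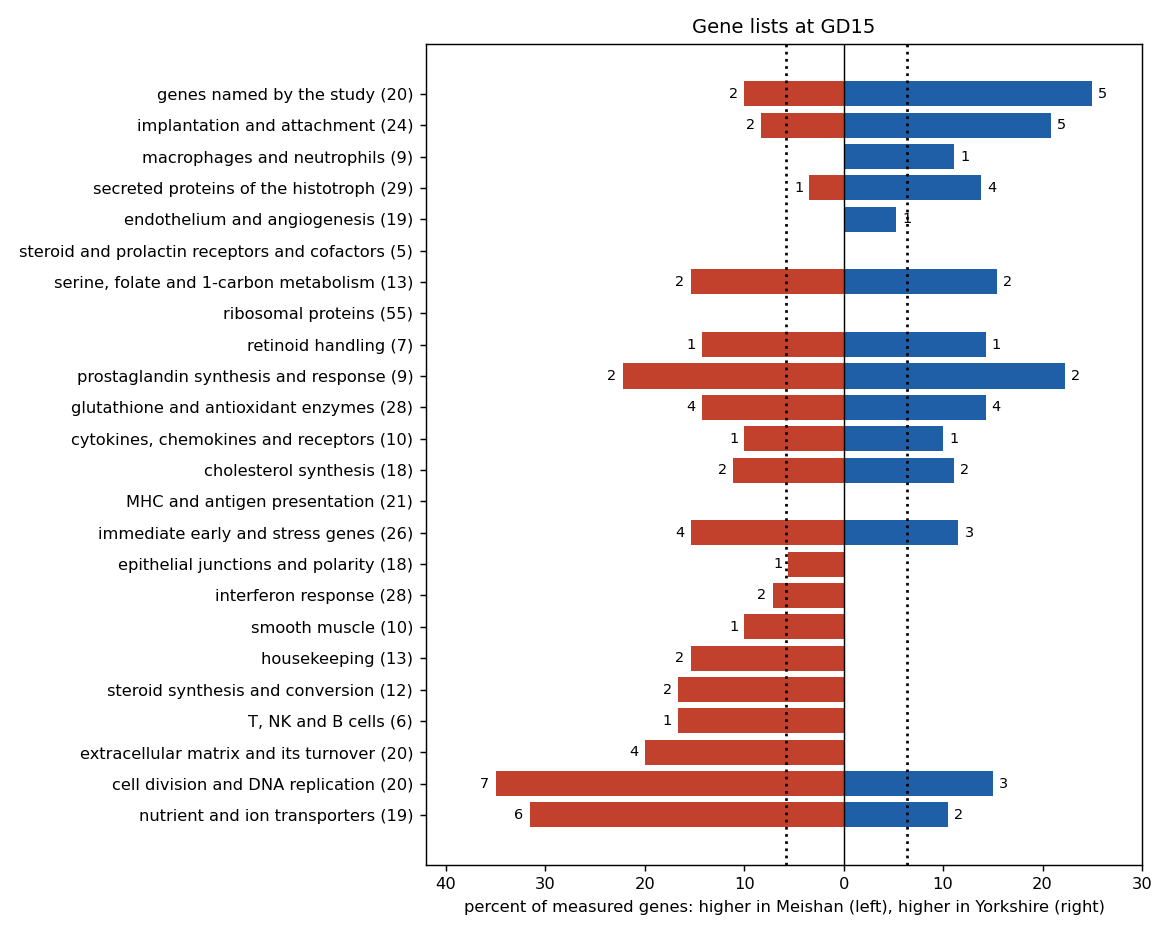
Percent of the measured genes of each list that were higher in Meishan (left) or in Yorkshire (right) at GD15 by the adjusted p, with the number of genes beside each bar, the number measured in brackets and dotted lines at the share over all 4119 genes. Lists with at least 5 measured genes are shown. Cell division has 7 of 20 genes higher in Meishan, some of which passed the filter through Meishan alone, and ribosomal proteins have none in either direction.

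Prostaglandins are lipid mediators of attachment and luteal maintenance, and 4 of the 9 measured genes of the prostaglandin list differed, 2 in each direction (median difference 0.29). PTGDS, which makes prostaglandin D, read 6.65, 6.73 and 6.37 in Meishan and 8.52, 8.33 and 8.78 in Yorkshire (3.89-fold, adjusted p = 4.45e-04), and CBR2 was also higher in Yorkshire, as given above. PTGES, which makes prostaglandin E, read 8.80, 8.93 and 8.80 in Meishan and 7.22, 6.99 and 7.49 in Yorkshire (3.06-fold higher in Meishan, adjusted p = 8.47e-04). PTGFRN, which dampens the receptor of prostaglandin F, was 2.70-fold higher in Meishan. The synthases of prostaglandins D and E were thus highest in different breeds. The inducible cyclooxygenase PTGS2 read 9.84, 9.17 and 10.78 in Meishan and 10.40, 10.38 and 10.66 in Yorkshire (adjusted p = 0.397), and was called higher in Yorkshire (difference 0.97) only without Meishan replicate 3.

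Retinoic acid is made from retinol in the endometrium and then broken down, and 2 of the 7 measured retinoid genes differed in opposite directions (median difference -0.11). ALDH1A1, which makes retinoic acid, read 11.96, 11.96 and 11.75 in Meishan and 13.34, 13.38 and 13.42 in Yorkshire (2.80-fold, adjusted p = 4.28e-04), and its second probe set gave 1.52 ± 0.14. CYP26A1, which removes retinoic acid, was higher in Meishan, as given above. Yorkshire thus had more message of the producing and less of the removing enzyme. RBP4, the secreted carrier of retinol, read 14.497 to 14.69 and 14.55 to 14.91 (adjusted p = 0.648).

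Of the steroid-synthesizing and converting genes, 2 of 12 were higher in Meishan, HSD17B10 and HSD17B12, by 1.49-fold and 1.43-fold (median of the list -0.11). HSD17B2, which inactivates estradiol, read 9.02 to 9.20 in Meishan and 9.38 to 10.09 in Yorkshire (0.75 ± 0.20, adjusted p = 0.0524), while its dimmer probe set was called (0.91 ± 0.18, adjusted p = 0.0158). Without Yorkshire replicate 1 the brighter probe set of HSD17B2 was called too, as was HSD11B1 without Meishan replicate 1 and, as higher in Meishan, STARD3 without Meishan replicate 3. The calls of HSD17B10 and HSD17B12 were lost when single arrays of either breed were left out (5 and 4 of the 6 arrays), and over all 6 removals the differences ran from -0.67 to -0.46. None of the 5 measured steroid receptor genes and cofactors was called by limma (median 0.11), among them PGRMC1 at 13.26 to 13.67. The probe sets of ESR1, PGR and PRLR had maximal intensities of 4.74, 72.3 and 4.53 on the 6 arrays, under the limit, and were not compared.

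In the list of implantation and attachment, 5 of 24 measured genes were higher in Yorkshire and 2 in Meishan (median difference 0.07, and -0.06 without Meishan replicate 1). ITGB3, an integrin subunit of the attachment complex, read 5.53, 6.001 and 5.54 in Meishan and 7.72, 7.85 and 8.07 in Yorkshire (at least 2.36-fold, adjusted p = 3.42e-04). MUC1, a mucin of the luminal surface that covers attachment sites, read 7.27, 7.24 and 7.57 against 8.42, 8.28 and 8.46 (2.04-fold). STC1, a secreted regulator of calcium and phosphate, read 11.92 to 11.96 in Meishan and 12.70 to 13.19 in Yorkshire (2.00-fold). These 3 calls held when any 1 array was left out. FGF7, a growth factor that acts on epithelium, was 2.40-fold higher in Meishan (10.16, 10.36 and 11.40 against 9.26, 9.40 and 9.45), and LGALS3, a galectin, differed by -0.67 ± 0.15. EGF (1.41 ± 0.37) and ITGB5 (0.54 ± 0.13) were higher in Yorkshire. Without Meishan replicate 3, 5 genes were higher in Yorkshire and 4 in Meishan, and without Meishan replicate 2 or Yorkshire replicate 1 or 2 these counts were 3 and 0, as the calls of EGF, ITGB5, FGF7 and LGALS3 were lost.

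Of 29 measured histotroph genes, 4 were higher in Yorkshire and 1 in Meishan, with a median of 0.21 that was 0.06 without Meishan replicate 3 and 0.12 without Yorkshire replicate 3. TF, the iron carrier transferrin, read 7.27, 8.30 and 7.77 in Meishan and 8.95, 9.02 and 9.16 in Yorkshire (2.40-fold, adjusted p = 0.0158). UABP-2, a uteroferrin-associated protein of the uterine glands, read 12.63 to 13.22 and 13.62 to 13.89 (0.88 ± 0.18), and CLU, the chaperone clusterin, differed by 0.61 ± 0.13. STC1 was the fourth gene higher in Yorkshire, and CCL28 was the 1 gene higher in Meishan. Without Meishan replicate 3 the counts were 5 and 5, since IGFBP2, TIMP1, APOE and FBLN1 were then higher in Meishan. Without any 1 of the Yorkshire arrays only 1 gene was higher in Yorkshire, STC1, because TF, UABP-2 and CLU lost their calls, and without Meishan replicate 2 only TF and STC1 were.

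Of 19 transporters of nutrients and ions, 2 were higher in Yorkshire and 6 in Meishan (median -0.11), against 12.2% of all genes in either direction. The metal importers were higher in Yorkshire: beside SLC11A2, the zinc importer SLC39A2 read 11.51, 11.62 and 11.49 in Meishan and 13.21, 13.32 and 13.25 in Yorkshire (3.29-fold, adjusted p = 1.65e-04). In Meishan, carriers of sugar, amino acid, salt and water were higher. AQP3, a channel for water and glycerol, read 10.47, 10.75 and 9.96 in Meishan and 8.40, 8.88 and 8.40 in Yorkshire (3.56-fold, adjusted p = 0.00271). SCNN1B, a subunit of the epithelial sodium channel, read 7.34, 7.11 and 7.08 against 5.24, 5.25 and 5.48 (-1.85 ± 0.14). It lay under 100 on every Yorkshire array and passed the filter through Meishan alone, so the size of its difference is uncertain. The glucose transporters SLC2A3 and SLC2A8 differed by -1.06 ± 0.16 and -1.05 ± 0.17, and ATP1B1, of the sodium pump, by -0.94 ± 0.14. All of these calls, with that of SLC1A1, held when any 1 array was left out.

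Metabolic lists split between the breeds. Of 13 serine, folate and 1-carbon genes, GNMT and SHMT1 were higher in Yorkshire and PHGDH and CTH in Meishan (median 0.21, and 0.06 without Meishan replicate 3 and 0.09 without Yorkshire replicate 3). PHGDH, the first enzyme of serine synthesis, read 11.47, 11.14 and 10.96 in Meishan and 9.81, 10.08 and 9.87 in Yorkshire (2.41-fold, adjusted p = 0.00304), and GNMT, which methylates glycine, read 9.28, 9.61 and 8.85 against 10.24, 10.47 and 11.06 (2.54-fold, adjusted p = 0.0157). The enzyme that starts serine synthesis and an enzyme that consumes glycine thus differed in opposite directions. The GNMT call was lost without Yorkshire replicate 2, and the CTH call without Meishan replicate 2 or any 1 of the Yorkshire arrays. Of 18 cholesterol genes, FDPS and the exporter ABCA1 were higher in Yorkshire and HSD17B7 and ACAT2 in Meishan (median -0.22). FDPS, which makes farnesyl diphosphate, read 12.29 to 12.33 and 13.32 to 13.62 (2.16-fold, adjusted p = 0.00209), and ABCA1 read 3.65 to 4.02 in Meishan and 7.21 to 7.81 in Yorkshire (at least 1.83-fold). Without Meishan replicate 3, NSDHL and NPC1 were also higher in Meishan, which made 4, without Yorkshire replicate 1 or 3 none was, and without each of the other arrays 1 was.

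Of 28 glutathione and antioxidant genes, 4 were higher in each breed (median -0.09). GPX3, a secreted glutathione peroxidase, averaged 10.31 ± 0.27 (SD, n = 3) in Meishan and 11.80 ± 0.11 in Yorkshire (2.81-fold, adjusted p = 0.00153). SOD3, the extracellular superoxide dismutase, and GSTM3 were 2.34-fold and 2.33-fold higher in Yorkshire, and MT1A, a metal-binding metallothionein, differed by 0.72 ± 0.18. PRDX1, a peroxiredoxin of the cytosol, read 11.81, 11.84 and 11.81 against 11.05, 10.91 and 10.46 (2.02-fold higher in Meishan), and NQO1, GSTA4 and the cytosolic SOD1 differed by -0.76 ± 0.13, -0.96 ± 0.17 and -0.55 ± 0.13. The SOD1 call was lost without any 1 array other than Meishan replicate 3, the MT1A call without Meishan replicate 2 or any 1 of the Yorkshire arrays, and the NQO1 call without Yorkshire replicate 2. Without Meishan replicate 3, 5 genes were higher in Yorkshire and 7 in Meishan, and without Yorkshire replicate 2 these were 3 and 2.

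Genes of cell division differed in 10 of 20 measured members, 7 of them higher in Meishan and 3 in Yorkshire (median -0.16). CDC25B, a phosphatase that starts mitosis, read 9.90, 9.32 and 9.05 in Meishan and 7.45, 7.79 and 7.68 in Yorkshire (3.44-fold, adjusted p = 0.00271). TOP2A, a topoisomerase of dividing cells, read 7.36, 6.85 and 6.68 against 5.33, 5.06 and 5.38, and CCNB1, the mitotic cyclin B, read 6.67, 6.73 and 6.88 against 4.90, 5.19 and 5.21. PTTG1, or securin, BUB3, CDK2 and LMNB1 were the others higher in Meishan, with differences of -2.34 ± 0.34, -0.91 ± 0.13, -1.01 ± 0.16 and -0.71 ± 0.15. TACC1, a centrosomal protein, read 4.15, 4.76 and 5.26 in Meishan and 8.30, 7.46 and 7.78 in Yorkshire (at least 2.30-fold), and CKS2 and GMNN, an inhibitor of DNA replication, differed by 0.70 ± 0.14 and 0.62 ± 0.13. PCNA, the sliding clamp of DNA replication, read 8.13 to 8.48 and 8.01 to 8.19 (adjusted p = 0.605). Several of these genes lay close to 100 in the brighter breed, and 28 others of the list on the array were not above it on 3 arrays. TOP2A, CCNB1 and PTTG1 lay under 100 on all Yorkshire arrays, and TACC1 on all Meishan arrays. They passed the filter through 1 breed alone, so the counts follow in part from the filter. The count higher in Meishan was 6 or 7 without any 1 array (LMNB1 lost its call), and that higher in Yorkshire fell to 1, TACC1, without any 1 of the Yorkshire arrays.

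Genes switched on early by growth factors or stress differed in 7 of 26 members (median -0.06, and -0.25 without Meishan replicate 1 and 0.14 without Meishan replicate 3). FOS was the farthest apart, and CYR61, a matrix-associated growth regulator, read 7.02, 7.74 and 7.997 in Meishan and 5.54, 5.62 and 5.62 in Yorkshire (at least 1.92-fold, adjusted p = 0.00214). ATF3 and DUSP1 were also higher in Meishan, with differences of -0.90 and -0.67. JUN, which pairs with FOS in the AP-1 factor, read 8.62, 8.61 and 7.96 in Meishan and 9.73, 9.22 and 9.26 in Yorkshire (2.01-fold, adjusted p = 0.0277). The AP-1 partners FOS and JUN thus differed in opposite directions. DDIT3 and TXNIP were higher in Yorkshire by 0.87 ± 0.19 and 0.47 ± 0.12. Without any 1 of the Yorkshire arrays, the JUN, DDIT3 and TXNIP calls were all lost and 3 genes higher in Meishan remained, and without Meishan replicate 1 or 2 the genes higher in Yorkshire were 2 and 1.

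Matrix genes had the most negative median among the lists with over 10 measured genes, at -0.37, with 4 of 20 higher in Meishan and none in Yorkshire. COL5A1, a collagen that shapes fibrils, read 9.12, 8.997 and 8.83 in Meishan and 7.94, 7.39 and 7.75 in Yorkshire (2.44-fold, adjusted p = 0.00337). COL6A3, COL15A1 and SPARC, a collagen-binding glycoprotein, were 1.86-fold, 1.74-fold and 1.55-fold higher. The summed intensity of the list was 86990 to 91980 in Meishan and 69700 to 77560 in Yorkshire, without overlap. Only COL5A1 was called under each removal of 1 array. Without Meishan replicate 3, 7 genes were higher in Meishan and ADAM9 was higher in Yorkshire, without Meishan replicate 2 only 2 were higher in Meishan, and without Yorkshire replicate 2 or 3 only 1.

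Smooth muscle, endothelial and epithelial genes gave few calls. ACTA2, the smooth muscle actin also found in vessel walls, read 12.57 to 12.73 in Meishan and 12.03 to 12.32 in Yorkshire (-0.51 ± 0.13, adjusted p = 0.0451), as 1 of 10 muscle genes, and its call was lost without any 1 array other than Meishan replicate 3. EDNRB, a receptor of endothelin, read 3.98, 4.56 and 5.45 in Meishan and 7.43, 7.13 and 7.03 in Yorkshire (at least 1.46-fold), as 1 of 19 endothelial genes. KRT19 was 1.88-fold higher in Meishan, as 1 of 18 genes of epithelial junctions and polarity, with its call lost without Meishan replicate 2 or any 1 of the Yorkshire arrays, and CDH1 read 12.54 to 12.71 and 12.76 to 12.86 (adjusted p = 0.414). Summed over the 6 epithelial markers, the intensity was 31440 to 34360 in Meishan and 30010 to 32930 in Yorkshire, so the ranges overlapped.

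Genes that respond to interferon gave 2 calls among 28 measured members, both higher in Meishan (median 0.03, and 0.29 without Meishan replicate 1 and -0.13 without Meishan replicate 3). USP18, a brake on interferon signalling, read 9.37, 9.19 and 8.22 in Meishan and 7.68, 7.57 and 7.95 in Yorkshire (2.29-fold, adjusted p = 0.0376), and OAS1, an antiviral enzyme, read 12.08, 12.22 and 11.46 against 11.28, 10.80 and 10.32 (2.17-fold, adjusted p = 0.0431). Meishan replicate 3 was the lowest Meishan pool in both, as it was for ISG15 (11.55, 11.32 and 9.09) and for the chemokine CXCL9 (9.34, 9.06 and 4.90). Without it, 4 genes were higher in Meishan, with MX1 (-1.52 ± 0.21) and XAF1 (-0.89 ± 0.21) added, and 3 were higher in Yorkshire. These were the guanylate-binding proteins GBP1 (1.11 ± 0.23) and GBP2 (1.11 ± 0.27), which are known for their response to interferon gamma, and WARS (1.25 ± 0.34), with adjusted p of 0.0169, 0.0324 and 0.0432. With all arrays, GBP1 read 11.33, 11.79 and 9.68 in Meishan and 13.04, 12.53 and 12.44 in Yorkshire (adjusted p = 0.0626). Without any other single array, the interferon genes higher in Meishan were 0 or 1, and WARS or GBP1 was called higher in Yorkshire without Meishan replicate 1 or 2.

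Other immune lists held few calls as well. None of the 21 measured genes of MHC and antigen presentation was called (median 0.18, and -0.09 without Meishan replicate 3). The class I gene SLA-3 read 12.97, 12.82 and 12.09 in Meishan and 13.48, 13.34 and 13.54 in Yorkshire (adjusted p = 0.0567), and SLA-3 was called higher in Yorkshire without Meishan replicate 1 or 3. At an unadjusted p under 0.05, 2367 of all tested probe sets passed. S100A9 was the 1 call among 9 macrophage and neutrophil genes, whose median was 0.70 (0.23 without Meishan replicate 3), and FCGR3A, an antibody receptor of macrophages and natural killer cells, read 10.07, 10.12 and 9.06 against 10.62, 10.63 and 11.04 (adjusted p = 0.0629). FCGR3A was called higher in Yorkshire without Meishan replicate 3 (0.67 ± 0.16). JCHAIN, which joins secreted antibodies of plasma cells, read 9.92, 10.31 and 9.83 in Meishan and 9.26, 9.27 and 8.83 in Yorkshire (1.87-fold higher in Meishan, adjusted p = 0.0196), as 1 of 6 lymphocyte genes. IL4R, the receptor of interleukin 4, read 6.25 to 6.27 in Meishan and 7.29 to 7.30 in Yorkshire (at least 1.57-fold), and it and CCL28 were the calls among 10 cytokine genes. The JCHAIN call was lost without Meishan replicate 2 or any 1 of the Yorkshire arrays.

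PLAC8, known from the attaching uterus and placenta, was the 1 call among 3 measured genes of the trophoblast list. It read 9.91, 9.56 and 8.15 in Meishan and 6.68, 7.04 and 7.84 in Yorkshire (4.07-fold higher in Meishan, adjusted p = 0.0321), and the call was lost without Meishan replicate 1 or 2 or Yorkshire replicate 1 or 2. None of the 3 measured genes of the insulin-like growth factor system was called, and without Meishan replicate 3 the binding protein IGFBP2 was higher in Meishan. TF was the 1 call among 3 genes of red cells and plasma. None of the 55 ribosomal protein genes was called (median 0.03). Of 13 housekeeping genes, GUSB and TUBB were higher in Meishan, by 1.83-fold and 1.69-fold, with the GUSB call lost without Yorkshire replicate 2 and the TUBB call without Meishan replicate 2 or any 1 of the Yorkshire arrays, and GAPDH was called higher in Meishan (-0.54 ± 0.13) only without Meishan replicate 3.

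Among the 20 measured genes that the study itself singled out, 5 were higher in Yorkshire (S100A9, STC1, ITGB3, FDPS and TACC1) and 2 in Meishan (CYP26A1 and HSD17B12), with a median of -0.07. The study chose these genes on the same samples, so the count is not independent evidence. The sterol enzymes split, since FDFT1, which makes squalene, read 12.41 to 12.50 and 12.32 to 12.64 (adjusted p = 0.99) while FDPS differed. THBS1, an adhesive matrix protein, read 6.79, 7.50 and 8.89 in Meishan and 6.76, 6.84 and 6.40 in Yorkshire (adjusted p = 0.201), so its Meishan pools were scattered, and without Meishan replicate 1 it was called (-1.53 ± 0.38). MSX1 (-0.49 ± 0.15), BMP4 (-0.30 ± 0.21), CH25H (-0.29 ± 0.17), PFN2 (-0.23 ± 0.13), EPAS1 (-0.15 ± 0.13), CFL1 (-0.27 ± 0.23), BSG (0.09 ± 0.12) and HSD11B1 (0.55 ± 0.19) did not pass the test.

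The breed difference on GD15 was then set beside those on GD26 and GD50. Of the 525 DEGs, 140 (26.7%) were DEGs in the same direction on GD26, 136 (25.9%) on GD50 and 90 (17.1%) on both, and 256 were DEGs on neither. Among all tested probe sets, 23.3% were DEGs on GD26 and 26.5% on GD50, most of them higher in Meishan (19.6% and 22.8%, against 3.74% and 3.73% higher in Yorkshire). Of the 268 DEGs higher in Yorkshire on GD15, 48 (17.9%) were DEGs higher in Yorkshire on GD26 and 47 (17.5%) on GD50. Of the 257 higher in Meishan, 92 (35.8%) and 89 (34.6%) were DEGs higher in Meishan on those days. DEGs in the opposite direction were 39 and 52 of those higher in Yorkshire, and 9 and 7 of those higher in Meishan. Whether these shares differ from each other or from those of all tested probe sets was not tested. The Yorkshire arrays of the later days stood apart, with hybridization controls at 11.71 to 13.67, against 9.997 to 11.33 on all other arrays, and array medians of 7.761 to 8.102 against 8.35 to 8.53, and their part in these counts was not tested.

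In a limma fit over all 18 arrays, the breed difference on GD15 differed from the mean of the later days for 363 of the 525 DEGs (69.1%), and for 45.7% of all tested probe sets. The median of this quantity over all tested probe sets was 0.49, as the Yorkshire arrays had lower medians on the later days, and after each array was centred on its median 365 of the DEGs still passed, 181 of the 268 higher in Yorkshire and 184 of the 257 higher in Meishan. The DEGs were chosen for their difference on GD15, so that 341 of the 363 had the larger difference on that day is no result. SERPINB7 averaged 6.80 in Meishan and 11.23 in Yorkshire on GD15, 6.45 and 6.73 on GD26, and 5.52 and 4.38 on GD50. NPY was at background in both breeds on the later days. CYP26A1 and CCL28 were dim in both breeds later, with means of 2.92 to 3.59 and 3.95 to 4.51. These 4 genes thus separated the breeds by over 2 log2 units on GD15 and on the later days by no more than SERPINB7 did on GD50 (-1.13).

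Other genes kept their direction on all 3 days. SST gave differences of -3.76 on GD15, -3.94 on GD26 and -6.02 on GD50 (adjusted p = 1.62e-04, 5.15e-04 and 4.43e-05), higher in Meishan each time. Its Yorkshire mean was 6.22 on GD15, and 2.64 and 3.27 on the later days. GSTA1 was higher in Yorkshire by 3.39, 9.72 and 3.30, ALDH1A1 by 1.49, 2.95 and 0.97 in its brighter probe set, and FMO1 by 2.33, 1.41 and 1.89. VWA5A, PTTG1 and PLAC8 were higher in Meishan on each day. The means of VWA5A and SST on GD26 and of GSTA1 on GD50 lay under 100 in both breeds, so those differences are uncertain. PRKAA2, a catalytic subunit of the energy sensor AMPK, turned, from 7.09 in Meishan and 8.20 in Yorkshire on GD15 to 6.55 and 3.26 on GD26 and 6.62 and 3.55 on GD50. These later means lay under 100 in both breeds, so the turn of PRKAA2 is uncertain. STC1 and ST6GAL1 were higher in Yorkshire on GD15 and higher in Meishan on GD26 (-2.29 and -1.45).

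**Figure D4:**
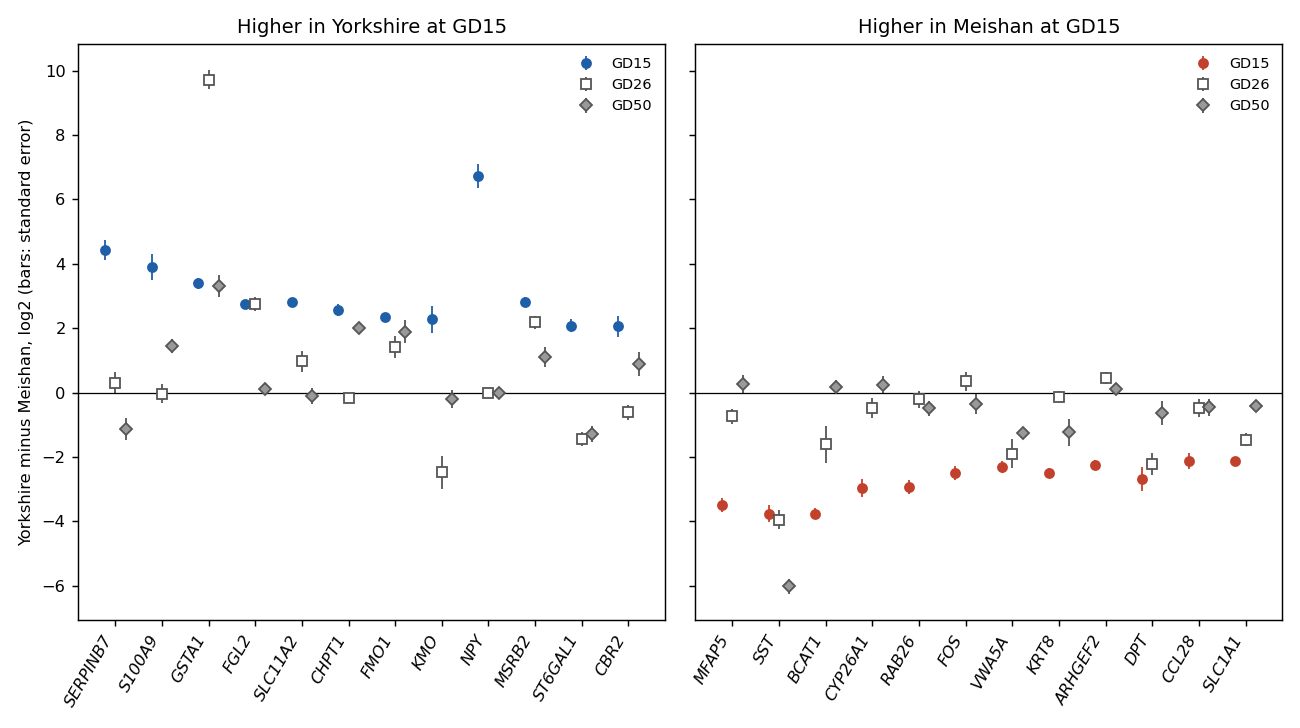
Yorkshire minus Meishan difference (log2, with standard error) on GD15, GD26 and GD50 for the 12 leading genes of each breed at GD15. SERPINB7, NPY, CYP26A1 and FOS stand far from 0 on GD15 alone, whereas GSTA1 and SST stand apart on every day. Some means of the later days, such as those of SST on GD26, lay under 100 in both breeds.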

How the data were processed

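Total RNA of endometrium next to attachment sites was hybridized to Affymetrix porcine arrays, with the RNA of corresponding sites of the same pair of gilts pooled for each array. The authors computed log2 intensities with GCRMA (RMA is also named in the submitters' processing notes; versions are not given in the sources used here), and these deposited log2 values were used unchanged. Such values are compressed near background, so differences of dim probe sets are uncertain. Probe sets were named through the platform annotation: 10099 have 1 symbol, 198 have several and 13826 have none. Control probe sets were left out.

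The 8776 probe sets with an intensity over 100 on at least 3 of the 6 arrays were fitted with lmFit and eBayes of limma 3.58.1 in R 4.3.3, after a test of the code on simulated data, with Benjamini-Hochberg adjustment over all of them. The other arrays entered only the comparison with later days, as the contrast of the GD15 breed difference with the mean of those on GD26 and GD50. No array batch was given. Named genes were the 12 DEGs with the largest difference in each direction (intensities under 100 set to 100 for ranking, no overlap), up to 4 members of each list past the adjusted p, all genes named by the study, up to 4 genes with probe sets called in opposite directions, and the 6 DEGs farthest from the later days; other members and genes outside this rule were named after their values were seen. The members and lists were chosen with earlier results of these data known. Alternatives were other filters, normalizations and corrections, a fit over all arrays, a replicate block and leaving out each array. The number of arrays limits the precision. No value was equal on a pair of arrays in more than 0.308% of the tested probe sets, so each array was counted once.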

Additional observations from a re-analysis of the deposited data

Results flagged for a closer look

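For 25 named genes, the Yorkshire minus Meishan difference on GD15 was tested against the mean of the differences on GD26 and GD50 in 1 limma fit over all arrays and passed the adjusted p. These genes were named for a large difference on GD15 or, for 6 of them, for this same quantity. That they passed is therefore no result, and the values are a description. Each value below is the GD15 difference minus that mean, on the log2 scale. Among genes higher in Yorkshire on GD15 it was 6.73 for NPY, 4.84 for SERPINB7, 4.29 for PRKAA2, 3.83 for ENPEP, 3.72 for ITGB3, 3.61 for KMO, 3.44 for ST6GAL1 and 3.19 for S100A9. Smaller values were found for SLC11A2 (2.37), CBR2 (1.93), CHPT1 (1.65), FGL2 (1.31) and MSRB2 (1.17). The later means of NPY and PRKAA2 lay under 100 in both breeds.

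Among genes higher in Meishan on GD15 it was -3.25 for MFAP5, -3.04 for BCAT1, -2.84 for CYP26A1, -2.57 for RAB26, -2.53 for ARHGEF2 and -2.50 for FOS. It was -1.82 for the dimmer probe set of KRT8, -1.66 for CCL28 and -1.18 for SLC1A1. In 3 genes the breeds differed in the same direction on all days, and less on GD15 than in the mean of the later days: GSTA1 (-3.12) and SOD3 (-3.69), higher in Yorkshire, and SST (1.23), higher in Meishan. The difference of GSTA1 was 9.72 on GD26 and 3.30 on GD50, against 3.39 on GD15. The means of GSTA1 on GD50 and of SST on GD26 lay under 100 in both breeds, so those differences are uncertain.

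The Yorkshire arrays of the later days had lower medians, and centring each array on its median moved the middle of this quantity from 0.49 to 0.02. After that centring, MSRB2 (0.70, adjusted p = 0.0961) and SST (0.76, adjusted p = 0.108) no longer passed, and under quantile normalization SST was -1.19. The other 23 genes passed after median centring. ENPEP, an aminopeptidase that acts on angiotensin, read 5.58, 5.65 and 6.08 in Meishan and 7.06, 7.12 and 7.67 in Yorkshire on GD15, and its breed differences were -3.53 on GD26 and -1.09 on GD50. The part of the hybridization of the later Yorkshire arrays in these values was not tested.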

How the results depend on the processing

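No GD15 call of a named gene reversed its direction under the alternatives run. The difference of FDFT1, which was not called, ran from -0.10 to 0.06 and so changed sign. The SST difference from the later days reversed under quantile normalization. The numbers of calls moved more. Against 268 and 257 DEGs higher in Yorkshire and in Meishan, requiring over 100 on all 6 arrays gave 139 and 152. Bonferroni adjustment gave 48 and 46 and counting genes 103 and 108, while no filter left 171 higher in Meishan. With intensities under 100 set to 100, the DEGs were 200 and 207. Probe sets past the adjusted p (612 and 533) were 359 and 271 without a filter, 48 and 46 by Bonferroni and 264 and 237 as genes. List genes past it (30 and 45) were 16 and 14 without a filter and 6 and 3 by Bonferroni. Fewer probe sets were tested under the stricter filter and as genes, and more without a filter; beyond that the cause was not tested.

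Leaving out single arrays gave 218 to 333 DEGs higher in Yorkshire and 209 to 289 higher in Meishan, 268 to 939 and 250 to 814 at the adjusted p, and 18 to 42 and 25 to 64 list genes, lowest without Yorkshire replicate 2 and highest without Meishan replicate 3. The replicate numbers did not pair the samples (correlations of deviations -0.37, -0.00016 and -0.35), and the replicate block left 338 and 317 probe sets past the adjusted p and 253 and 243 DEGs. Of the 4008 probe sets that differed from the later days, quantile normalization left 2668 and cyclic loess 2504, and leaving out single arrays gave 3253 (without Yorkshire GD15 replicate 1) to 4591 (without Yorkshire GD26 replicate 1), with 336 to 377 of the DEGs. With 3 pools of the same gilts in each breed, differences between animals could not be measured, and differences of probe sets near background have only a bound.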

Other observations

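Genes of cilia were looked at after their values had been seen. The list covers motile cilia, the beating structures of ciliated epithelial cells, and also genes that serve cilia in general, such as IFT52 and BBS4. The list was written after 15 of its members had been noticed among the DEGs, so its counts are a description and carry no test. Of its 31 measured genes, 20 (64.5%) were past the adjusted p and higher in Yorkshire and none was higher in Meishan, with a median difference of 0.83. Over all genes, 6.41% were higher in Yorkshire and 5.75% in Meishan. LRRC23 and CFAP161, which are among the called genes, lay under 100 on every Meishan array. They passed the filter through Yorkshire alone, so the count follows in part from the filter. UBXN10 read 6.80, 6.31 and 7.02 in Meishan and 8.36, 8.39 and 8.37 in Yorkshire (3.17-fold). CFAP126 read 7.80, 7.29 and 7.35 against 9.11, 8.85 and 9.06 (2.88-fold), and C17H20orf85 read 9.39, 9.30 and 9.54 against 10.87, 10.96 and 10.53 (2.60-fold). These examples were chosen after their values were seen. ROPN1L, an axonemal protein, stood at 8.50 to 8.56 in Meishan and 9.59 to 9.66 in Yorkshire. Between 13 (without Yorkshire replicate 1 or 2) and 21 of the genes were called when single arrays were left out. On the later days the median of the list was -1.12 on GD26 and -0.63 on GD50, against -0.46 and -0.49 over all tested probe sets. Fewer ciliated cells and less RNA per cell cannot be told apart.

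Enzyme families of xenobiotic and aldehyde metabolism, also listed after their values had been seen, did not lean to a breed. Of 42 measured genes, 7 (16.7%) were higher in Yorkshire and 6 (14.3%) in Meishan, with a median difference of 0.01. Over all genes these shares were 6.41% and 5.75%. CES3, a carboxylesterase, read 7.53, 7.24 and 6.96 in Meishan and 9.52, 9.52 and 8.76 in Yorkshire (4.06-fold), and ALDH7A1 read 8.87, 9.01 and 8.92 against 10.49, 10.55 and 10.56 (3.02-fold). CYP2C91, a cytochrome P450, read 8.45, 8.90 and 8.04 in Meishan and 7.03, 7.12 and 7.04 in Yorkshire (2.64-fold higher in Meishan), and EPHX2, an epoxide hydrolase, was 2.48-fold higher in Meishan. Members of related families thus lay on both sides.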
